A study of Homo sapiens with 6 samples.

Results

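Genes that cells switch on when oxygen is scarce, other than those of glycolysis, were followed in single clones of MDA-MB-231, an established line of human triple-negative breast cancer. The set comprised 36 genes named by symbol, with older symbols matched through gene identifiers (ERO1L is ERO1A), and the brightest probe set over the 6 arrays stood for each gene. A named probe set existed for 35 of the 36 among 19775 genes, and CA9 was not analysed here. The knockdown group was 3 puromycin-resistant clones infected with a pSM2 retrovirus that expressed 1 of 2 hairpins targeting WASF3, an activator of branched actin assembly. The control group was 3 clones, also puromycin-resistant, that had received the same vector empty or with a hairpin against GFP. All clones were at passage 4 after selection in 1.0 μg/ml puromycin for 2 weeks, and the labels name no culture in low oxygen. The labels used here do not say which hairpin or control vector each clone carried. Each array is a single clone, so p-values measure the spread between clones, and a difference between founder cells cannot be told apart from an effect of the hairpin.

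In the response to low oxygen, the prolyl hydroxylases that mark HIF alpha subunits for destruction by VHL lose activity. The stabilised subunit then joins ARNT and binds DNA at hypoxia response elements. Besides glycolysis, the induced genes serve blood vessel growth, pH control, removal of mitochondria, restraint of growth signalling, chromatin demethylation, glycogen storage and iron supply, and many of them also answer to other stress pathways. In tumours they are commonly used as a transcript signature of hypoxia.

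Promoters of the genes that passed the test or stood apart in the opposite direction are shown because the core of the hypoxia response element, ACGTG or GCGTG, can be read in them. Each window is the 250 bases before an annotated start, 5′ to 3′ on the strand of the gene, from RefSeq on GRCh38.p14. They are chr3:122383932-122384181 (plus strand) for FAM162A, chr10:72273674-72273923 (plus) for DDIT4, chr3:4979187-4979436 (plus) for BHLHE40, and chr1:203026241-203026490 (plus) for PPFIA4. INSIG2 is shown at chr2:118088221-118088470 (plus), the upstream one of its 2 windows. PPP1R3C at chr10:91633072-91633321 (minus) and WSB1 at chr17:27293864-27294113 (plus) are the genes whose knockdown clones all lay above the control clones. Capitals mark the core on either strand, so that CACGT and CACGC are cores read on the opposite strand, and the palindrome CACGTG holds an overlapping core on each strand.
FAM162A: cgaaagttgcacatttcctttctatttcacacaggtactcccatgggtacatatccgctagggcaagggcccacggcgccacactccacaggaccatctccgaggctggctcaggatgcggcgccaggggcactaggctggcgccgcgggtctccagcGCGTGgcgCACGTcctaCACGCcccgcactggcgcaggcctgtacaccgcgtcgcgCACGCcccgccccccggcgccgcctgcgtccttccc
DDIT4: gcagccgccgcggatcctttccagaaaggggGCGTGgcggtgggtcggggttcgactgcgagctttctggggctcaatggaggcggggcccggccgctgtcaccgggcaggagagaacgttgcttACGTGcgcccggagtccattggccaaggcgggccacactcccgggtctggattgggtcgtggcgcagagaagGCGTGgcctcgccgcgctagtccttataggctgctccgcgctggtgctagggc
BHLHE40: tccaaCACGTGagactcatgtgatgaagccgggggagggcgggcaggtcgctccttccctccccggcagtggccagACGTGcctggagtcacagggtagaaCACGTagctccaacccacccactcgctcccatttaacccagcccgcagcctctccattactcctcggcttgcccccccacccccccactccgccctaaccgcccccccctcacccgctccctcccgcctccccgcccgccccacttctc
INSIG2: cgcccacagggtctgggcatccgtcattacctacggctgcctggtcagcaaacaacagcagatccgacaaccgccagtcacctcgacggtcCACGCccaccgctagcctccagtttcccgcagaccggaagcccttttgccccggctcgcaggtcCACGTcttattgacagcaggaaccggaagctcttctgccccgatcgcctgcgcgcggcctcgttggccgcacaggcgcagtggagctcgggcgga
PPFIA4: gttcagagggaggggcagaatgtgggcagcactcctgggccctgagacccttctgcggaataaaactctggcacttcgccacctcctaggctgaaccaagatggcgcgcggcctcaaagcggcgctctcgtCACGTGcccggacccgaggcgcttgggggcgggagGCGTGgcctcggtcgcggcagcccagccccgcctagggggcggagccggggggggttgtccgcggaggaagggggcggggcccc
PPP1R3C: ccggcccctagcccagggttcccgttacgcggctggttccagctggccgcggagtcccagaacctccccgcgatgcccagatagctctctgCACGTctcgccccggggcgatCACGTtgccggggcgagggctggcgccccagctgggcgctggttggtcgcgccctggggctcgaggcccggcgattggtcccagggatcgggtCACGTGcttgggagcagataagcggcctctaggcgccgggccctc
WSB1: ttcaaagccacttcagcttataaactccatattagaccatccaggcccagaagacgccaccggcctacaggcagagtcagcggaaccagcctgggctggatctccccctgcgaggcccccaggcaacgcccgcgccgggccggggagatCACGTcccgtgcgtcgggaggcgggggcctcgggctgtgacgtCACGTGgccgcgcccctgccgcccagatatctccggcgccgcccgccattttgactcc

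The core was present in every window printed, in those of the genes that fell and in those of the genes with higher signal. Of 37 windows belonging to 27 measured members, 32 held ACGTG or GCGTG, or 86.5%, against 49.6% of the 21485 windows of genes on the array. ACGTG alone was found in 48.6% of member windows and 20.4% of all windows, and CACGTG in 27.0% and 7.38%. Member windows were richer in G and C, with a median of 70.0% against 62.0%, and the motifs contain CG. Among windows with at least 60% G and C, the core was in 88.9% of those of members and in 60.5% of all. The members without a core in any window, SLC6A8 and TF, gave log2 changes of −0.34 and −0.03, and the 25 with a core ran from −1.25 to 0.42 with a median of −0.31. Some genes gave several windows, and the windows of INSIG2 and of KDM3A overlap and hold the same sites. The members were listed as hypoxia-induced genes, so these shares describe the list and not the clones. A match is a run of letters and not a measured binding site. No window was matched for VEGFA, STC1, BNIP3L, NDRG1, ZNF395, JMJD6, HILPDA and HMOX1.

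WASF3 read 5.40, 5.80 and 4.52 in knockdown clones 1, 2 and 3 and 6.77, 6.42 and 6.59 in control clones 1, 2 and 3 (log2 RMA signal). The groups did not overlap, but the change of −1.35 (SE 0.29) missed the threshold (limma, adjusted p = 0.102). It passed without knockdown clone 3 (−0.99, adjusted p = 0.0175). Of 8 markers of this line, VIM, CD44, CAV1, AXL, MSN, FOSL1 and PLAU had control means between 10.6 and 14.3, while SPARC was low at 4.87. The mean over the 8 markers was 11.19 to 11.29 in knockdown and 11.34 to 11.39 in control clones, and 0 of them was called (limma; 1 lower and 0 higher at an unadjusted p under 0.05). The hormone receptors ESR1 (5.89) and PGR (3.31) lay within the range of 14 leukocyte markers, 3.20 to 6.32 with a median of 4.92, which serves here as a guide to signal without expression. The knockdown mean of WASF3, 5.24, also lay in that range, so the size of its difference is uncertain. Luminal markers were not all absent, with KRT18 at 13.01 and TFF1 at 12.2 in control clones. TFF1 read 10.52, 9.40 and 7.71 in knockdown clones (log2 change −2.95, SE 0.60, limma adjusted p = 0.0895). CDH1 was above the controls in knockdown clone 1 only, at 7.33, 4.44 and 4.47 against 5.19, 4.59 and 5.05. EPCAM was above them in clones 1 and 2, at 7.88, 8.67 and 7.38 against 7.53, 7.39 and 7.51. Of 12 luminal markers, 8 had a lower and 4 a higher mean, and 0 were called. At an unadjusted p under 0.05, 5 were lower and 0 higher, against 7.67% and 9.11% of all genes (limma). The mean over 12 luminal markers was 7.35 to 8.17 in knockdown and 8.01 to 8.15 in control clones, and over the leukocyte markers 4.76 to 4.85 and 4.89 to 4.94. The part of these shifts in the results was not tested. Array medians lay between 5.12 and 5.17. The difference between 3′ and 5′ control probe sets for GAPDH and ACTB, a sign of RNA quality, was 2.11, 1.62 and 1.66 in knockdown and 1.13, 1.47 and 1.26 in control clones, so it was higher in every knockdown clone.

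The comparison of knockdown with control clones asked whether hypoxia-induced transcripts beyond glycolysis differ between clones with hairpins against WASF3 and control clones. Most were lower in the knockdown clones. The members were chosen with earlier results of these data known, so the shares set beside all genes below are descriptions. The genes that passed the test were DDIT4, BHLHE40, INSIG2, FAM162A and PPFIA4, which all fell, to between 41.9% and 59.5% of the control signal. These 5 of 35 measured members are 14.3%, against 0.42% of all genes called lower (limma, adjusted p under 0.05 over all probe sets). No member was called higher (0.319% of all genes). At an unadjusted p under 0.05, 18 members were lower and 1 higher, where 7.67% of all genes were lower and 9.11% higher. In 19 members every knockdown clone lay below every control clone (12.6% of all genes), and in 2 every knockdown clone lay above (12.1%). The mean was lower in 30 of 35 members, as in 52.4% of all genes. Among genes with a mean signal above 5, which 34 of the members exceeded, 9.68% were lower at an unadjusted p under 0.05, 14.4% lay below and 16.1% above the controls without overlap, and 49.5% had a lower mean. In RNA from whole cultures, a lower level in every cell and fewer expressing cells cannot be told apart. The median log2 change of the members was −0.39, with quartiles of −0.73 and −0.18, and that of all genes was −0.01.

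The count of calls depended on single clones, while the median change did not fall below −0.43 or rise above −0.31 when any clone was left out. Without knockdown clone 1, 8 members were called lower, and without knockdown clone 3, 14, with the 5 genes above among them each time. Calls rose over the whole array too, to 1.63% and 2.23% of all genes called lower in the same fits. Without knockdown clone 2, or without control clone 1, 2 or 3, none was called, and the adjusted p of those 5 lay between 0.0744 and 0.274 (limma). Calls nearly vanished over the whole array as well, with 0.0759%, 0.0101%, 0.0152% and 0.0101% of all genes called lower in these fits. Where an uncalled member is said below to pass without a clone, no other single omission brought it under the threshold, except for ANKRD37. With an intensity trend in the variance, INSIG2 and PPFIA4 just missed the threshold (limma adjusted p = 0.0501 for each). With the 3′ to 5′ index, which was higher in the knockdown clones, as a covariate, the median change was −0.16, none was called, and 22 of 35 members had a negative fitted change. Over all genes the median in this fit was −0.03 and 0.00506% were called lower. In that fit DDIT4 stood at −1.01, BHLHE40 at −0.81, FAM162A at −0.77, INSIG2 at −0.69 and PPFIA4 at −0.81, with limma adjusted p from 0.210 to 0.263. Some uncalled members changed more in it, with −1.71 for ANKRD37, −1.45 for BHLHE41, −1.22 for CA12, −0.98 for AK4 and −0.91 for HMOX1. Many others changed less or turned in sign. The index was higher in every knockdown clone, so its part and that of the group cannot be told apart.

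**Figure D1:**
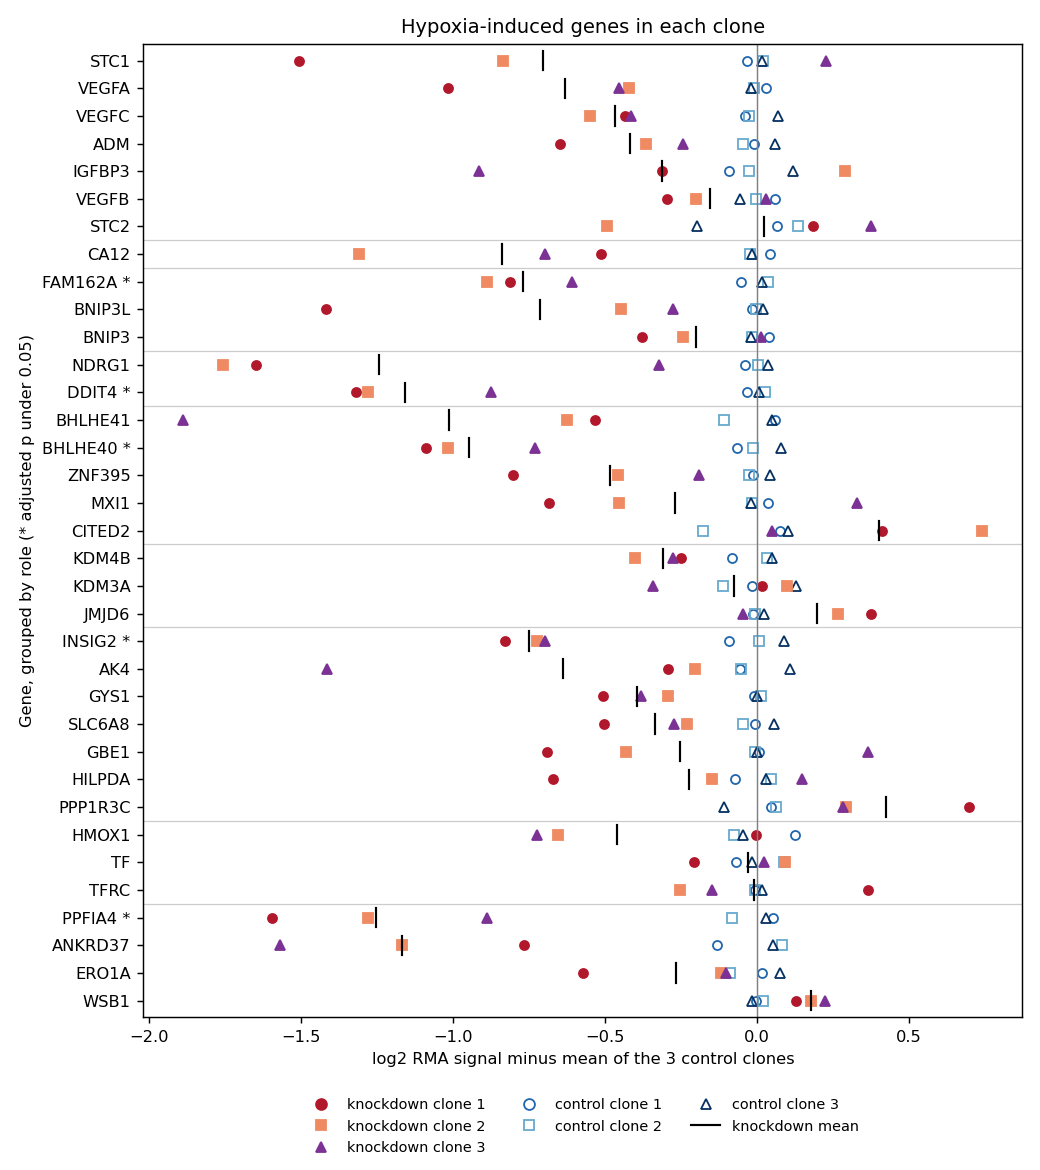
Log2 RMA signal of each clone minus the mean of the 3 control clones, for 35 hypoxia-induced genes grouped by role; filled symbols are knockdown clones, open symbols control clones and black ticks the knockdown mean. The open symbols cluster near 0 while most filled symbols lie to the left, and the 5 genes with an asterisk passed the test.

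Among secreted factors, VEGFC, a growth factor for lymphatic vessels, read 9.82, 9.70 and 9.83 in knockdown clones 1, 2 and 3 and 10.21, 10.22 and 10.32 in control clones. All knockdown clones lay below the controls, close together. The difference was −0.47 (SE 0.09, limma adjusted p = 0.0715), and it passed without knockdown clone 3 (−0.49, adjusted p = 0.0331). VEGFA, the main angiogenic factor induced by HIF, read 11.12, 11.72 and 11.68 against 12.17, 12.13 and 12.12, lowest in knockdown clone 1. Its difference of −0.63 (SE 0.16, limma adjusted p = 0.142) did not pass, and with the 3′ to 5′ index as a covariate it was −0.16. ADM, which encodes the vasodilator adrenomedullin, stood at 10.29, 10.58 and 10.70 against 10.93, 10.89 and 11.00, a difference of −0.42 (SE 0.12, limma adjusted p = 0.181) that passed without knockdown clone 3 (−0.51, adjusted p = 0.0485) and was −0.14 with the index as a covariate (adjusted p = 0.784). The glycoprotein hormone gene STC1 split the knockdown clones, at 8.59 and 9.26 in clones 1 and 2 but 10.33 in clone 3, where the controls lay between 10.07 and 10.12. Its mean difference of −0.71 had an SE of 0.38, and without clone 3 it was −1.17 and passed (limma adjusted p = 0.0181). Without clone 1 it was −0.30, and with the index as a covariate its direction turned, to 0.16. IGFBP3, a carrier of insulin-like growth factors, overlapped between groups at 8.97, 9.58 and 8.37 against 9.20, 9.26 and 9.41. VEGFB, a relative of VEGFA, differed by −0.16 (0.0176 with the index as a covariate) and STC2, the paralogue of STC1, by 0.02. STC2 had a control mean of 4.55, below the leukocyte marker median, so it is not shown to be expressed.

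CA12, a membrane carbonic anhydrase that hydrates carbon dioxide outside the cell, read 8.37, 7.57 and 8.18 in knockdown against 8.92, 8.86 and 8.86 in control clones. Every knockdown clone was lower, and clone 2 most so. The difference was −0.84 (SE 0.19, limma adjusted p = 0.114), and it passed without knockdown clone 1 (limma adjusted p = 0.0445). With the index as a covariate it was −1.22.

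FAM162A, a mitochondrial protein linked to hypoxic cell death, fell to 58.6% of the control signal, from 12.84 ± 0.05 to 12.07 ± 0.14 (SD, n = 3). The clones read 12.03, 11.95 and 12.23 against 12.78, 12.87 and 12.85, a gap of 0.56 between the groups. The log2 change was −0.77 (SE 0.10, limma adjusted p = 0.0368). BNIP3 and BNIP3L encode mitophagy receptors of the outer mitochondrial membrane. For BNIP3L the knockdown clones read 9.71, 10.68 and 10.85 and the controls 11.11, 11.12 and 11.15. The low value of clone 1 gave a wide error on the difference of −0.72 (SE 0.27, limma adjusted p = 0.296). It was −0.36 without clone 1 and turned to 0.10 with the index as a covariate. BNIP3 overlapped, at 12.38, 12.52 and 12.77 against 12.80, 12.74 and 12.74, a difference of −0.20 that was 0.0125 with the index as a covariate.

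DDIT4, also known as REDD1, is an inhibitor of mTORC1, and it fell to 44.8% of the control signal. It read 9.18, 9.22 and 9.62 in knockdown and 10.47, 10.52 and 10.50 in control clones, a gap of 0.84 between the groups. The change was −1.16 (SE 0.13, limma adjusted p = 0.0311). NDRG1, a stress-responsive suppressor of metastasis, had a similar mean difference with a much wider spread, at 10.65, 10.54 and 11.98 against 12.26, 12.30 and 12.34. Clones 1 and 2 lay far below the controls and clone 3 just below them. The difference of −1.24 (SE 0.35) did not pass (limma adjusted p = 0.171), and without clone 3 it was −1.70 and passed (adjusted p = 0.00166).

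BHLHE40 and BHLHE41 are paired circadian repressors of the basic helix-loop-helix family that bind E-boxes. BHLHE40 fell to 51.9% of the control signal, with 9.79, 9.86 and 10.15 in knockdown and 10.82, 10.87 and 10.96 in control clones (change −0.95, SE 0.12, limma adjusted p = 0.0317). BHLHE41 read 7.78, 7.69 and 6.42 against 8.37, 8.20 and 8.36. Here clone 3 was the lowest, unlike in BHLHE40, and the difference of −1.01 (SE 0.33) did not pass (limma adjusted p = 0.233). Without clone 3 it was −0.58 and passed (adjusted p = 0.0241), and with the index as a covariate it was −1.45. The value rests on 1 of 4 probe sets: the mean over all of them was −0.40 (limma adjusted p = 0.301), and without probe sets of the _s, _x and _a kinds it was −0.21. ZNF395, a zinc finger factor, read 9.39, 9.74 and 10.00 against 10.18, 10.17 and 10.24, lowest in clone 1 and below the controls in every knockdown clone. It differed by −0.48 (SE 0.15, limma adjusted p = 0.216), and by −0.63 without clone 3 (adjusted p = 0.0316). The mean of its probe sets gave −0.25 and the index as a covariate −0.12. MXI1, an antagonist of MYC, was lower in clones 1 and 2 (9.63 and 9.86) and higher in clone 3 (10.64) than the controls (10.29 to 10.35). Its difference was −0.27, without clone 3 it was −0.57 (limma adjusted p = 0.0277), and with the index as a covariate it turned to 0.20. CITED2, which competes with HIF for the coactivators CREBBP and EP300, was at 9.10, 9.43 and 8.74 against 8.76, 8.51 and 8.79, a difference of 0.40 (SE 0.18, limma adjusted p = 0.376), or 0.0880 as the mean of its probe sets.

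KDM3A, KDM4B and JMJD6 are oxygenases that use 2-oxoglutarate, the first pair being histone demethylases. KDM4B was lower in all knockdown clones, at 9.59, 9.44 and 9.56 against 9.76, 9.87 and 9.89 (difference −0.31, SE 0.09, limma adjusted p = 0.189). KDM3A differed by −0.08 (SE 0.14) with overlapping groups. JMJD6 read 9.02, 8.92 and 8.60 against 8.64, 8.64 and 8.67, so clones 1 and 2 were above the controls and clone 3 below (difference 0.20, SE 0.12, limma adjusted p = 0.533, and 0.00361 with the index as a covariate).

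Of the metabolic genes, INSIG2, which retains the SREBP cleavage complex in the endoplasmic reticulum, fell to 59.5% of the control signal. It read 8.57, 8.68 and 8.70 in knockdown and 9.31, 9.41 and 9.49 in control clones, with similar spread in both groups (SD 0.07 and 0.09). The change was −0.75 (SE 0.09, limma adjusted p = 0.0317). GYS1 and GBE1 encode glycogen synthase and the branching enzyme. GYS1 was lower in every knockdown clone (8.37, 8.58 and 8.49 against 8.86, 8.89 and 8.87, difference −0.39, SE 0.09, limma adjusted p = 0.113). GBE1 was lower in clones 1 and 2 (10.39 and 10.65) but higher in clone 3 (11.45) than the controls (11.07 to 11.09). The difference of GBE1 was −0.25, without clone 3 it was −0.56 (limma adjusted p = 0.0314), and with the index as a covariate it turned to 0.23. PPP1R3C, which targets protein phosphatase 1 to glycogen, went the other way, at 7.76, 7.35 and 7.34 against 7.10, 7.12 and 6.95 (difference 0.42, SE 0.13, limma adjusted p = 0.217, and 0.0876 with the index as a covariate). AK4, a mitochondrial adenylate kinase, read 10.21, 10.30 and 9.09 against 10.45, 10.45 and 10.62. Its difference of −0.64 (SE 0.30) was −0.25 without clone 3 and −0.98 with the index as a covariate. The creatine transporter SLC6A8 differed by −0.34 and the lipid droplet protein HILPDA by −0.22, both with limma adjusted p above the threshold (0.205 and 0.675). With the index as a covariate they were −0.12 and 0.24. The knockdown mean of SLC6A8, 6.07, lay within the range of the leukocyte markers.

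No gene of iron and haem passed the test, and in each of them the groups overlapped. The transferrin receptor TFRC read 12.90, 12.28 and 12.38 against 12.52, 12.52 and 12.55, so clone 1 was above and clones 2 and 3 below the controls (difference −0.01, SE 0.16). TF, encoding transferrin, read 5.53, 5.83 and 5.76 against 5.67, 5.83 and 5.72, a difference of −0.03 (SE 0.11, limma adjusted p = 0.935). HMOX1, the inducible haem oxygenase, was at 6.25, 5.60 and 5.53 against 6.38, 6.18 and 6.20 (difference −0.46, SE 0.19, limma adjusted p = 0.337). It passed without knockdown clone 1 (−0.69, adjusted p = 0.0312) and was −0.91 with the index as a covariate (adjusted p = 0.278). Mean levels of TF and HMOX1 lay within the range of the leukocyte markers.

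PPFIA4, a scaffold protein of the liprin alpha family, fell to 41.9% of the control signal, with 5.09, 5.40 and 5.80 in knockdown and 6.74, 6.60 and 6.71 in control clones. The change was −1.25 (SE 0.17, limma adjusted p = 0.0389). Its knockdown level lay within the range of the leukocyte markers, so the size of the change is uncertain. ANKRD37, a short ankyrin repeat protein induced by HIF, read 8.46, 8.05 and 7.65 against 9.09, 9.30 and 9.27. The groups were 0.64 apart, and the difference of −1.17 (SE 0.19) just missed the threshold (limma adjusted p = 0.0544). Leaving out knockdown clone 1 or 3 brought it under the threshold (limma adjusted p = 0.0162 and 0.0152), and the mean of its 2 probe sets gave −0.53 (adjusted p = 0.0677). With the index as a covariate the difference was −1.71. ERO1A, an oxidase that drives disulfide formation in the endoplasmic reticulum, differed by −0.27 (SE 0.14), with a gap of 0.01 between the groups, and by 0.14 with the index as a covariate. WSB1, a substrate receptor of a ubiquitin ligase, was 0.18 higher (SE 0.08, limma adjusted p = 0.389). It read 9.88, 9.93 and 9.98 against 9.75, 9.77 and 9.74. Its other bright probe set gave 0.37 (limma adjusted p = 0.169), and all 5 of its probe sets were higher. Without probe sets of the _s, _x and _a kinds WSB1 was 0.0730 higher, on a dim probe set with a control mean of 3.82. The exact two-sided permutation test gave p = 0.1 for each of the 21 members whose groups did not overlap, the smallest value that 3 against 3 allows.

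**Figure D2:**
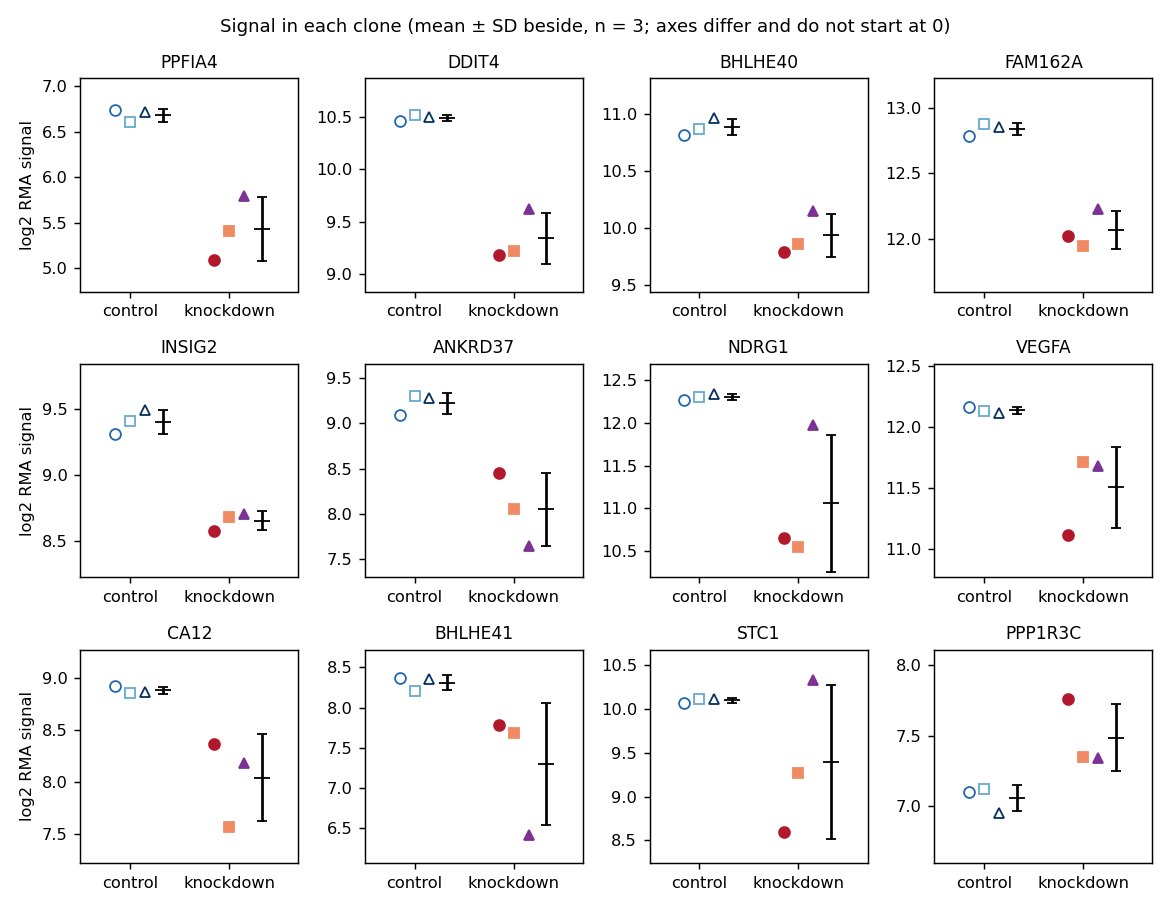
Log2 RMA signal of 12 hypoxia-induced genes in each control clone (open symbols) and knockdown clone (filled; circle, square and triangle for clones 1, 2 and 3), with mean ± SD (n = 3) beside each group and a separate axis for each gene. PPFIA4, DDIT4, BHLHE40, FAM162A and INSIG2 show knockdown clones grouped below the controls, whereas NDRG1, BHLHE41 and STC1 show 1 knockdown clone apart from the other 2.

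The knockdown clones differed among themselves more than the control clones did. The SD of the members had a median of 0.31 in knockdown and 0.06 in control clones, against 0.16 and 0.08 over all genes. In knockdown clone 1, 27 of 35 members lay below every control clone (34.3% of all genes), in clone 2, 28 (37.7%), and in clone 3, 24 (39.2%). The median distance from the control mean was −0.51, −0.42 and −0.28 in clones 1, 2 and 3. Among the 3 knockdown clones, clone 1 was the lowest in 19 members, clone 2 in 7 and clone 3 in 9, while clone 3 was also the highest in 19. WASF3 itself was lowest in clone 3. The largest distances from the control mean were NDRG1 in clones 1 (−1.65) and 2 (−1.76) and BHLHE41 in clone 3 (−1.89).

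Of the 35 members, 24 had more than 1 probe set, and in 17 of these every probe set pointed one way. Counting all 94 probe sets, 72 had a lower mean, 8 were called lower and 0 higher (limma). Over all 54613 probe sets tested, 52.9% had a lower mean, 0.308% were called lower and 0.251% higher. FAM162A was called on 4 of 5 probe sets, between −0.96 and −0.69, and its remaining probe set was dim, with a control mean of 4.34, and gave −0.08. All 4 probe sets of VEGFA were lower, between −0.96 and −0.59, and none passed. For CA12, 4 of 7 probe sets lay between −0.89 and −0.83, and the dimmest gave 0.02. BHLHE40 was called on 1 of 2, with −0.43 on the other (limma adjusted p = 0.180). KDM4B ranged from −0.70 (limma adjusted p = 0.0582) to 0.33 over 8 probe sets. AK4 was lower on all 4 of its probe sets, between −0.64 and −0.29, but the groups stayed apart only on the brightest. The second probe set of ANKRD37, with a control mean of 4.20, gave 0.11 in place of −1.17. CITED2 gave 0.24 and 0.40 on its brighter probe sets and −0.37 on the dimmest. Besides the −1.01 of its brightest probe set, BHLHE41 gave −0.39, 0.02 and −0.21 on the other 3, which had control means between 3.36 and 5.79. TFRC and TF had mixed signs with small values, from −0.22 to 0.06 and from −0.14 to 0.01. DDIT4, INSIG2, PPFIA4 and NDRG1 had a single probe set each, so their values had no second reading.

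**Figure D3:**
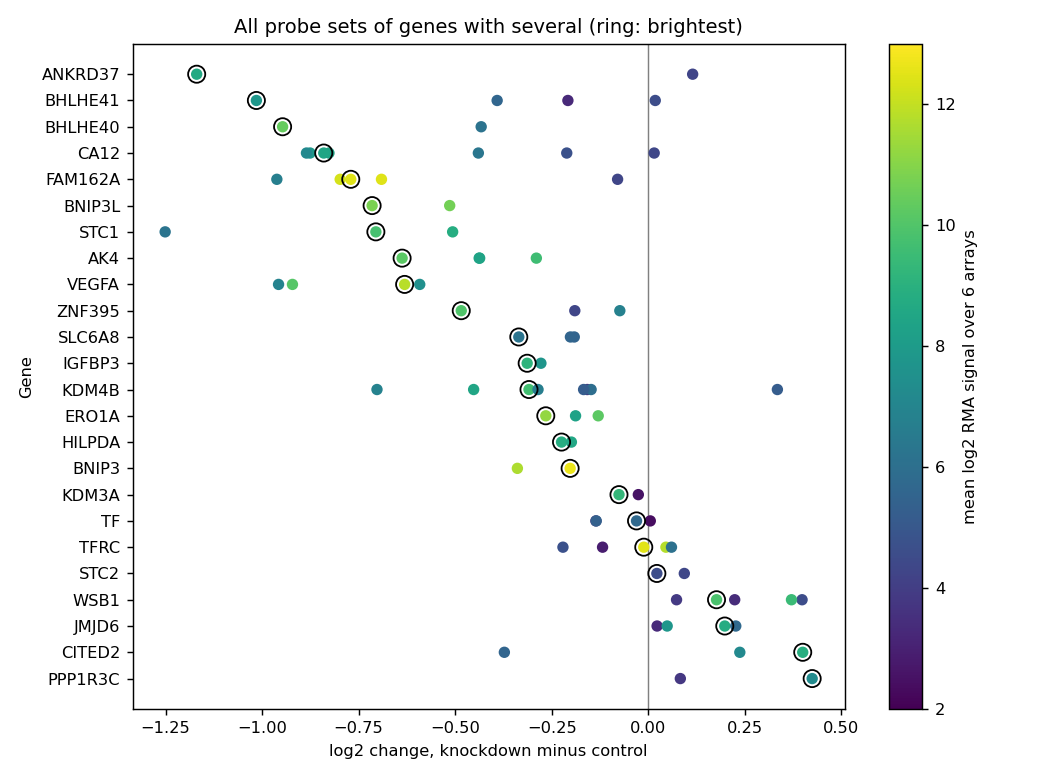
Log2 change (knockdown minus control) on every probe set of the 24 hypoxia-induced genes with more than 1, coloured by mean log2 RMA signal, with a ring around the brightest. The bright probe sets of FAM162A and CA12 lie close together, while the dim second probe set of ANKRD37 and the dimmest of CITED2 lie on the other side of 0 from the brightest.

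The pathway around these genes was read from lists that, like the members, were chosen with earlier results of these data known. Their counts and medians are descriptions. Of 12 HIF subunits, hydroxylases and cofactors, 1 was called lower (0.42% of all genes) and 0 higher (limma), with a median change of −0.03. At an unadjusted p under 0.05, 3 were lower and 1 higher, against 7.67% and 9.11% of all genes (limma). EGLN3, the hydroxylase gene that HIF itself induces, read 6.67, 6.53 and 6.35 in knockdown and 7.41, 7.49 and 7.50 in control clones, and fell (log2 change −0.95, SE 0.11, limma adjusted p = 0.0311). HIF1A read 12.71, 12.52 and 12.66 against 12.21, 12.23 and 12.21 (difference 0.42, SE 0.09, limma adjusted p = 0.0978). EPAS1, encoding HIF2 alpha, read 9.57, 9.22 and 9.15 against 9.97, 9.96 and 9.99 (difference −0.67, SE 0.12, limma adjusted p = 0.0698), and leaving out knockdown clone 1 or 3 gave −0.79 and −0.58, which passed (limma adjusted p = 0.0175 and 0.0389). The mean of its probe sets gave −0.28 (adjusted p = 0.123). VHL, the recognition subunit that targets HIF for degradation, read 6.24, 6.21 and 6.53 against 6.68, 6.59 and 6.55, a difference of −0.28 (SE 0.11, limma adjusted p = 0.315) that was −0.17 as the mean of its probe sets and −0.16 with the index as a covariate.

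Over all genes, 52.4% had a lower mean, 0.42% were called lower and 0.319% higher, and 7.67% were lower and 9.11% higher at an unadjusted p under 0.05 (limma). Among 22 measured glycolytic genes of the hypoxia response, 21 had a lower mean, 1 was called lower and 0 higher (limma; 13 and 0 at an unadjusted p under 0.05), and the median change was −0.36. The called gene was PFKFB4, which makes the activator of phosphofructokinase. It read 8.71, 8.89 and 8.83 in knockdown and 9.71, 9.79 and 9.84 in control clones and fell by 0.97 (SE 0.09, limma adjusted p = 0.0172). Of 19 other hypoxia-induced genes, 18 had a lower mean, 2 were called lower and 0 higher (12 and 1 at an unadjusted p under 0.05), with a median of −0.44. The lipase inhibitor ANGPTL4, at 8.46, 8.45 and 8.40 against 9.67, 9.66 and 9.68, fell by 1.23 (SE 0.08, limma adjusted p = 0.00578). The nuclear receptor RORA, at 3.31, 3.20 and 3.35 against 5.14, 4.78 and 5.33, fell by 1.80 (SE 0.15, limma adjusted p = 0.00946). Both group means of RORA, 3.29 and 5.08, lay within the range of the leukocyte markers, and the mean of its probe sets gave −0.42, which did not pass (limma adjusted p = 0.0691). Without knockdown clone 2 or any single control clone, EGLN3 and PFKFB4 did not pass (limma adjusted p from 0.0563 to 0.258). ANGPTL4 did not pass without any single control clone (0.0810 to 0.0888), and RORA passed without control clone 2 (0.0360) but not without knockdown clone 2 or control clone 1 or 3 (0.0566 to 0.130).

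**Figure D4:**
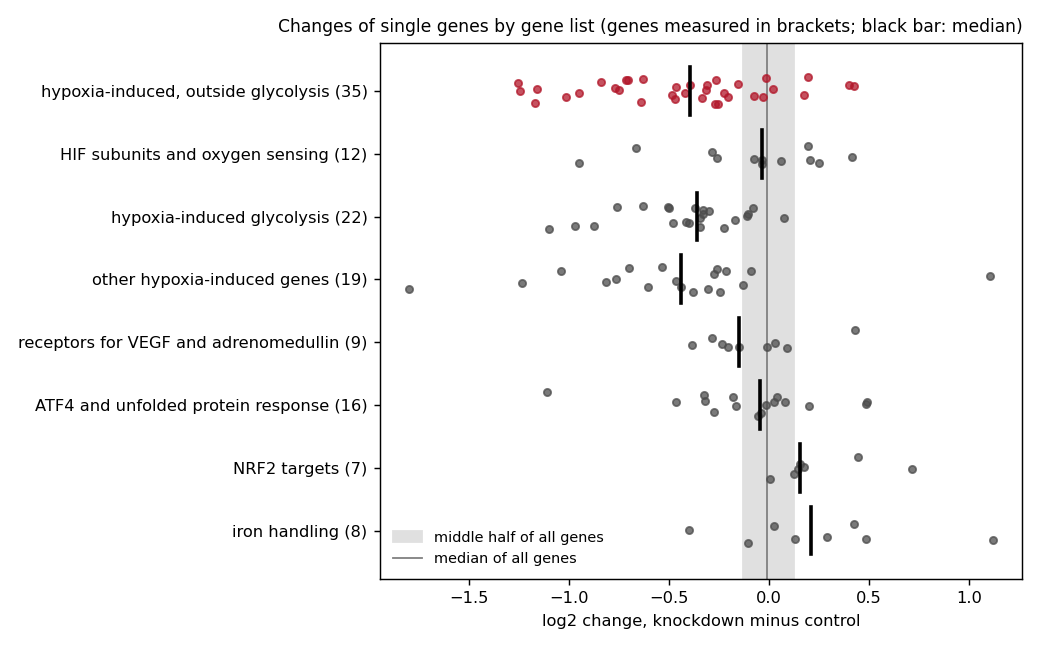
Log2 change (knockdown minus control) of each measured gene in the set of 35 and in 7 related lists; points are genes, spread vertically for visibility, black bars are list medians, and the grey band holds the middle of all genes between the quartiles −0.13 and 0.13. The hypoxia-induced lists have medians between −0.44 and −0.36, and the HIF subunit list has a median of −0.03.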

How the data were processed

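RNA of 6 clones was hybridised to 1 Affymetrix array each. The values are log2 signals, used as deposited by the authors; the submitters' processing notes name RMA and Affymetrix Expression Console 1.0. RMA applies quantile normalization, so a shift of all transcripts together would not be seen. Of 54675 probe sets, 62 controls were left out and 54613 tested with limma 3.58.1 in R 4.3.3 (lmFit and eBayes, prior df 3.49), with Benjamini-Hochberg adjustment over all of them and a threshold of 0.05. The platform annotation gave 1 symbol to 41091 probe sets, several to 1801 and none to 11721. Of those with 1 symbol, 41037 were matched to a RefSeq symbol through gene identifiers. Each gene was read from its brightest probe set. Differences are knockdown minus control.

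The members and lists were chosen with earlier results of these data known. All members are named; clone values are given for called members and for the 2 smallest p-values in each role group, for WASF3, and from each list up to 3 called genes or the 2 smallest p-values, with HIF1A, EPAS1 and VHL always. Clone values of further members and of luminal markers, and the alternatives printed beside them, were chosen after their values were seen. Promoter windows came from RefSeq on GRCh38.p14. The limma script was tested on simulated data. No read depth applies to arrays, and 3 clones a group limit the precision. Alternatives were the probe set choice, a filter at a mean of 5, median centring, an intensity trend, array weights, a replicate block, the RNA index and each clone left out.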

Additional observations from a re-analysis of the deposited data

How the results depend on the processing

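Single members kept direction and side of the threshold in 408 of 479 comparisons with an alternative. In the others, 32 lost the call, 18 gained it and 21 changed sign, and the cause was not tested. Most of the 479 were of members not called in the main fit, and only the 5 called genes could lose a call. FAM162A stayed called in 8 of 14 alternatives, INSIG2 in 7 of 14, DDIT4 and BHLHE40 in 7 of 13 each, and PPFIA4 in 6 of 13. No alternative called a member higher. With each clone left out in turn, members called lower ranged from 0 to 14 and their median change from −0.43 to −0.31. In the same fits, genes called lower ranged from 2 to 441 and higher from 0 to 784. Members with groups that did not overlap ranged from 19 to 25 lower and 2 to 4 higher. With fewer clones, groups lie apart more easily for any gene, and the share over all genes was not counted in these fits. The mean of all probe sets gave 128 genes lower, 110 higher and 1 member above the controls. Without probe sets of the _s, _x and _a kinds, 2 of 25 members were called lower, the median was −0.27, 51 genes were lower and 40 higher, and 1 member lay above the controls; these include fewer members. The filter at a mean of 5 gave 97 genes higher. The intensity trend gave 3 members and 44 genes lower and 19 higher; array weights gave 9, 295 and 419. Clones that share a number did not deviate together (correlations −0.07, −0.10 and −0.04), so the numbers are not taken as pairs; the replicate block gave 0 members called, 3 genes lower and 0 higher. The RNA index as a covariate gave 0 members called, a median of −0.16, 1 gene lower and 0 higher.

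Signs changed with the index for VEGFB (0.0176), STC1 (0.16), STC2 (−0.25), BNIP3 (0.0125), BNIP3L (0.10), MXI1 (0.20), GBE1 (0.23), HILPDA (0.24), TF (0.11) and ERO1A (0.14). Array weights gave −0.15 for STC2 and 0.00013 for TF, and median centring 0.00949 for TFRC. With each clone left out in turn, the change crossed 0 for STC2 (−0.15 to 0.28), TFRC (−0.20 to 0.11), TF (−0.0920 to 0.0573) and KDM3A (−0.16 to 0.0565). Signal near that of the leukocyte markers limits what STC2, TF, HMOX1, PPFIA4, SLC6A8, WASF3, RORA, NRP2, KDR and SLC40A1 can show.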

Other observations

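Genes next to the hypoxia response that belong in no comparison above gave the following values, by limma on the same clones. For the counts below, 0.42% of all genes were called lower and 0.319% higher. At an unadjusted p under 0.05, 7.67% of all genes were lower and 9.11% higher (limma). Among 9 receptors for VEGF and adrenomedullin, 0 were called (1 lower and 1 higher at an unadjusted p under 0.05), and the median change was −0.15. NRP2, a coreceptor for VEGF, read 6.16, 5.63 and 6.09 in knockdown and 6.36, 6.34 and 6.34 in control clones and differed by −0.38 (SE 0.14, limma adjusted p = 0.291). KDR, the main VEGF receptor of endothelium, read 6.30, 6.45 and 5.74 against 5.83, 5.69 and 5.69. It differed by 0.43 (SE 0.18, limma adjusted p = 0.345), with both means, 6.16 and 5.73, in the range of the leukocyte markers, and by 0.64 without knockdown clone 3 (adjusted p = 0.0190).

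Among 16 genes of ATF4 and the unfolded protein response, 0 were called (2 lower and 1 higher at an unadjusted p under 0.05), with a median of −0.04. VLDLR, a lipoprotein receptor also in the list of other hypoxia-induced genes, read 7.18, 7.52 and 7.41 against 7.79, 7.76 and 7.95 and differed by −0.46 (SE 0.12, limma adjusted p = 0.136). PHGDH, the first enzyme of serine synthesis, read 7.45, 5.80 and 6.20 against 7.53, 7.63 and 7.61 and differed by −1.11 (SE 0.37, limma adjusted p = 0.247), and by −1.59 without knockdown clone 1 (adjusted p = 0.0109).

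The 7 measured NRF2 targets all had a higher mean in knockdown clones, with a median of 0.15, but 0 were called (0 lower and 2 higher at an unadjusted p under 0.05). A higher mean was found in 9413 of all 19775 genes. GCLC, the catalytic subunit for glutathione synthesis, read 8.41, 8.51 and 8.50 against 8.01, 7.88 and 8.20 and differed by 0.45 (SE 0.11, limma adjusted p = 0.122). SLC7A11, the cystine transporter, read 8.31, 8.70 and 9.59 against 8.10, 8.17 and 8.18 and differed by 0.72 (SE 0.29, limma adjusted p = 0.324). HMOX1, also an NRF2 target, had a lower mean, as given above. Of 8 measured genes of iron handling, 6 had a higher mean, 0 were called (0 lower and 3 higher at an unadjusted p under 0.05), and the median was 0.21. FBXL5, which senses iron and marks IRP2 for degradation, read 9.29, 9.37 and 9.76 against 8.96, 8.95 and 9.06 and differed by 0.49 (SE 0.13, limma adjusted p = 0.170). SLC40A1, the iron exporter ferroportin, read 6.18, 7.36 and 5.72 against 5.29, 5.45 and 5.15. It differed by 1.12 (SE 0.37, limma adjusted p = 0.235), with a control mean of 5.30 in the range of the leukocyte markers, and by 1.47 without knockdown clone 3 (adjusted p = 0.0384).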
